A study of Homo sapiens with 24 samples.

Results

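Mitochondrial solute carriers of the SLC25 family and sideroflexins were followed in A2780 cells, a human line derived from epithelial ovarian cancer, kept in 1% oxygen or at normal oxygen for 3 lengths of time. The genes were taken by symbol: 50 rows of the gene table were named SLC25A or SFXN followed by a number, and 42 of them reached 1 RPKM (reads scaled by transcript length and by the reads of the library) in at least 2 of 12 libraries. These 42 were 37 SLC25A genes and 5 sideroflexins among 22446 symbols, of which 11933 passed the same minimum and were tested. The other 8, SLC25A2, SLC25A18, SLC25A27, SLC25A31, SLC25A34, SLC25A41, SLC25A47 and SLC25A48, stayed below it, the highest single value among them being 0.615 RPKM for SLC25A41.

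SLC25 carriers are built from repeats of a paired transmembrane helix and sit mostly in the inner mitochondrial membrane, where each moves a narrow set of substrates: ADP against ATP, phosphate, citrate and other acids of the TCA cycle, amino acids, cofactors, nucleotides, iron or glutathione. They connect the matrix, where respiration takes place, with the cytosol, where glycolysis takes place. Sideroflexins are a separate family of inner membrane proteins, of which SFXN1 is known as a serine carrier for one-carbon metabolism and SFXN4 as a factor in the assembly of respiratory complex I.

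There were 6 groups of 2 libraries: hypoxia (1% oxygen) and normoxia at 6 hr (libraries 3 and 4, and libraries 1 and 2), hypoxia and normoxia at 48 hr (7 and 8, and 5 and 6), and hypoxia and normoxia at 6 days (11 and 12, and 9 and 10). All groups shared RPMI 1640 medium with 10 to 15% fetal bovine serum and gentamicin, 5% CO2, miRVANA extraction, ribosomal RNA depletion of 3 ug of RNA with Ribominus, and SOLiD Total RNA-Seq libraries read on a 5500xl for 75 bases in the forward direction only. Whether the paired libraries are separate cultures is not stated, and p-values here reflect library-to-library spread, which may be technical. In bulk RNA, fewer cells expressing a gene and less RNA per cell cannot be told apart.

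Read totals inferred from the precursor miRNA values of the same libraries ran from 25.15 M (library 12) to 51.85 M (library 1), and Pearson r across tested genes, which are no independent replicates, was 0.9892 to 0.9951 within groups. The 42 genes differed most between libraries 1 and 2, by a median of 0.2088 (absolute log2), and by 0.0795 to 0.1462 within the other 5 groups. Of 6 genes known to be induced by low oxygen (CA9, BNIP3, PDK1, SLC2A1, ADM and VEGFA), 5 rose at 6 hr and 6 at both later times. Of 10 markers of the labelled cell type only EPCAM (33.2 to 42.2 RPKM), KRT18 (23.7 to 38.2 RPKM) and KRT8 (0.615 to 1.96 RPKM) passed the minimum, and KRT7, KRT19, CDH1, PAX8, WT1, MUC16 and MSLN did not exceed 0.246 RPKM. Of 8 fibroblast markers 4 passed (DCN, LUM, THY1 and COL3A1). The sum of the 8 was 37.2 to 39.0 RPKM in hypoxia and 31.3 to 36.7 RPKM in normoxia at 6 hr, 41.7 to 45.0 RPKM in hypoxia and 29.1 to 31.0 RPKM in normoxia at 48 hr, and 44.5 to 48.0 RPKM in hypoxia and 34.1 to 35.5 RPKM in normoxia at 6 days. The markers did not move together: at 6 days DCN had 22.3 and 22.2 RPKM in hypoxia and 17.2 and 18.3 RPKM in normoxia, and LUM 16.8 and 13.9 RPKM in hypoxia and 8.57 and 7.83 RPKM in normoxia. THY1 had 5.19 and 4.61 RPKM in hypoxia and 5.22 and 5.99 RPKM in normoxia at 6 days. The part of these markers in the results was not tested. No leukocyte (of 5) or endothelial (of 4) marker passed the minimum. Library 4 (hypoxia at 6 hr) stood apart in some low markers, with 3.06 RPKM of COL1A2, 2.50 RPKM of COL1A1, 0.258 RPKM of CD14 and 0.184 RPKM of VWF, against at most 0.125, 0.785, 0.0996 and 0.0375 RPKM in any other library. Without library 4, 2 of the 42 genes were called at 6 hr, of which 1 was also called with it.

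The family was led by the carriers that oxidative phosphorylation draws on directly. On the RPKM scale, which is per length, the mean over 12 libraries was 80.7 for the ADP/ATP carrier SLC25A5, 75.6 for the ADP/ATP carrier SLC25A6 and 74.8 for the phosphate carrier SLC25A3, and the ranges of these 3 overlapped. The next levels were 32.9 RPKM for the glutathione carrier SLC25A39, 31.4 for SFXN1, 20.9 for the pyrimidine nucleotide carrier SLC25A36 and 20.1 for the citrate carrier SLC25A1. A mean of at least 10 RPKM was found in 15 of the 42 genes and a mean under 1 RPKM in 3. SLC25A35 reached the minimum only in normoxia at 6 days, SLC25A45 only in hypoxia at 6 days and SLC25A42 only in the 6-day libraries, so these 3 entered through groups where they were high, and counts over the 42 genes are a description.

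The genes that set the pattern below are SLC25A4 and SLC25A36, higher in hypoxia at every time, and SFXN2, with the lowest fold change. Their promoters are shown to let the bases before the transcription start be compared for the core motifs bound by hypoxia-inducible factors (ACGTG and GCGTG, either strand, in capitals). Each stretch is the 250 bases before the start in RefSeq on GRCh38.p14, plus strand, at chr4:185143016-185143265 for SLC25A4, chr3:140941586-140941835 for SLC25A36 and chr10:102714386-102714635 for SFXN2.
SLC25A4: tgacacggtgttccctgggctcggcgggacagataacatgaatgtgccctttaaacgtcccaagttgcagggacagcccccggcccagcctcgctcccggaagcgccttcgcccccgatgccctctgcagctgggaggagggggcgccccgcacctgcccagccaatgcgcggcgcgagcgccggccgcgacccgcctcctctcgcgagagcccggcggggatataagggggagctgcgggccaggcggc
SLC25A36: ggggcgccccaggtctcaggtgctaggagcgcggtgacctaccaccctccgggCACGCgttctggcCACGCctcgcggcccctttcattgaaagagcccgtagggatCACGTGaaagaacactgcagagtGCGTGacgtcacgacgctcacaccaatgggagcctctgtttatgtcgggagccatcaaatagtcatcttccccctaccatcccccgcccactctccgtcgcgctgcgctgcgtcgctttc
SFXN2: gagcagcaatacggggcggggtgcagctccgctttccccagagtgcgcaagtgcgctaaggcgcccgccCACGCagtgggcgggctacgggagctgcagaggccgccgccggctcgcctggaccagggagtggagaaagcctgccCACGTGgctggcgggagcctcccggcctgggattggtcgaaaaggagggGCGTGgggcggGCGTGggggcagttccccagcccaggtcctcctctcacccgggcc
The SLC25A4 stretch held no match, while SLC25A36 and SFXN2 held 5 matches each. In both of these genes 2 of the 5 matches overlap, because the palindrome CACGTG reads as ACGTG on either strand; it begins 143 bases before the start in SLC25A36 and 105 bases before it in SFXN2. SLC25A4, SLC25A36 and SFXN2 were picked by their changes in hypoxia, and no link between matches and the direction of change was tested. Windows of 300 bases (250 before and 50 after the start) were found by symbol for 36 of the 42 genes, 49 windows in all, and 79.6% of them held either motif, against 62.3% of 11775 windows of tested genes and 48.4% of all 35116 windows. The 11775 windows cover 8034 of the 11933 tested genes. These shares count windows, of which a gene can have several, and their difference was not tested. A match is a description of these letters and not a binding site.

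Low oxygen changed few of these genes at 6 hr. For a gene, rose and fell mean higher or lower in hypoxia than in normoxia of the same time, not a change with time. At 6 days 47.6% of the 42 were called, beside 42.2% of all tested genes, with 19% higher and 28.6% lower. In limma with Benjamini-Hochberg adjustment over all tested genes and a threshold of 0.05, 2 of 42 rose and 0 fell at 6 hr, where 3.59% of all tested genes were called (3.39% higher and 0.201% lower). At an unadjusted p under 0.05, 2 of the 42 were higher and 6 lower at 6 hr, 19% in all, beside 12.8% higher and 4.04% lower, 16.8% in all, of all tested genes. At 48 hr 4 rose and 3 fell, where 12.1% of all genes were called (9.24% higher and 2.89% lower). At 6 days 8 rose and 12 fell, where 42.2% of all genes were called (23.9% higher and 18.3% lower). Of the 39 genes other than SLC25A35, SLC25A42 and SLC25A45, 6 rose and 11 fell at 6 days. The median log2 fold change of the 42 was -0.06 at 6 hr, -0.05 at 48 hr and -0.08 at 6 days, beside 0.04, 0.01 and 0.04 over all tested genes.

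The split between directions depended on the scaling of the libraries. With quantile normalization 2 rose and 1 fell at 6 hr, 2 rose and 6 fell at 48 hr, and 6 rose and 15 fell at 6 days; with centring on a trimmed mean these were 2 and 1, 4 and 5, and 6 and 14. The split over all tested genes moved as well. At 6 days it was 22.7% higher and 27.5% lower under quantile normalization and 21.4% higher and 24.6% lower with the trimmed mean. At 48 hr it was 7.86% higher and 5.72% lower under quantile normalization and 9.69% higher and 6.3% lower with the trimmed mean, and at 6 hr 2.92% higher and 0.913% lower, and 3.18% higher and 0.972% lower. At 6 hr the counts rest on single libraries, since without library 3 none of the 42 was called (1.52% of all genes), and at 48 hr 1 to 4 were called when a library was left out (5.19 to 6.8% of all genes), with 1 each without libraries 6 and 7. Without library 9, 13 were called at 6 days, where the share of all genes called also fell to 29.3%.

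Among the 42 genes, 22 were called at no time, 13 at 6 days only and 7 at both 48 hr and 6 days in the same direction, 2 of which were also called at 6 hr. Of all tested genes, 54.7% were called at no time, 32.6% at 6 days only, 8.9% at both 48 hr and 6 days in the same direction and 2.68% higher at all 3 times. None of the 42 was called in opposite directions at different times, beside 0.528% of all tested genes. On the log2(RPKM + 0.5) scale, a called change of at least 2-fold was found for SLC25A4 and SFXN2, both at 6 days. That scale understates the fold of low genes. Group means of RPKM also differed more than 2-fold for the called change of SLC25A45 at 48 hr (0.673 in hypoxia and 0.180 in normoxia). Those of SLC25A35 did so at 6 days (0.374 and 1.06). SLC25A35 passed the filter only through normoxia at 6 days, so that difference is a description.

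**Figure D1:**
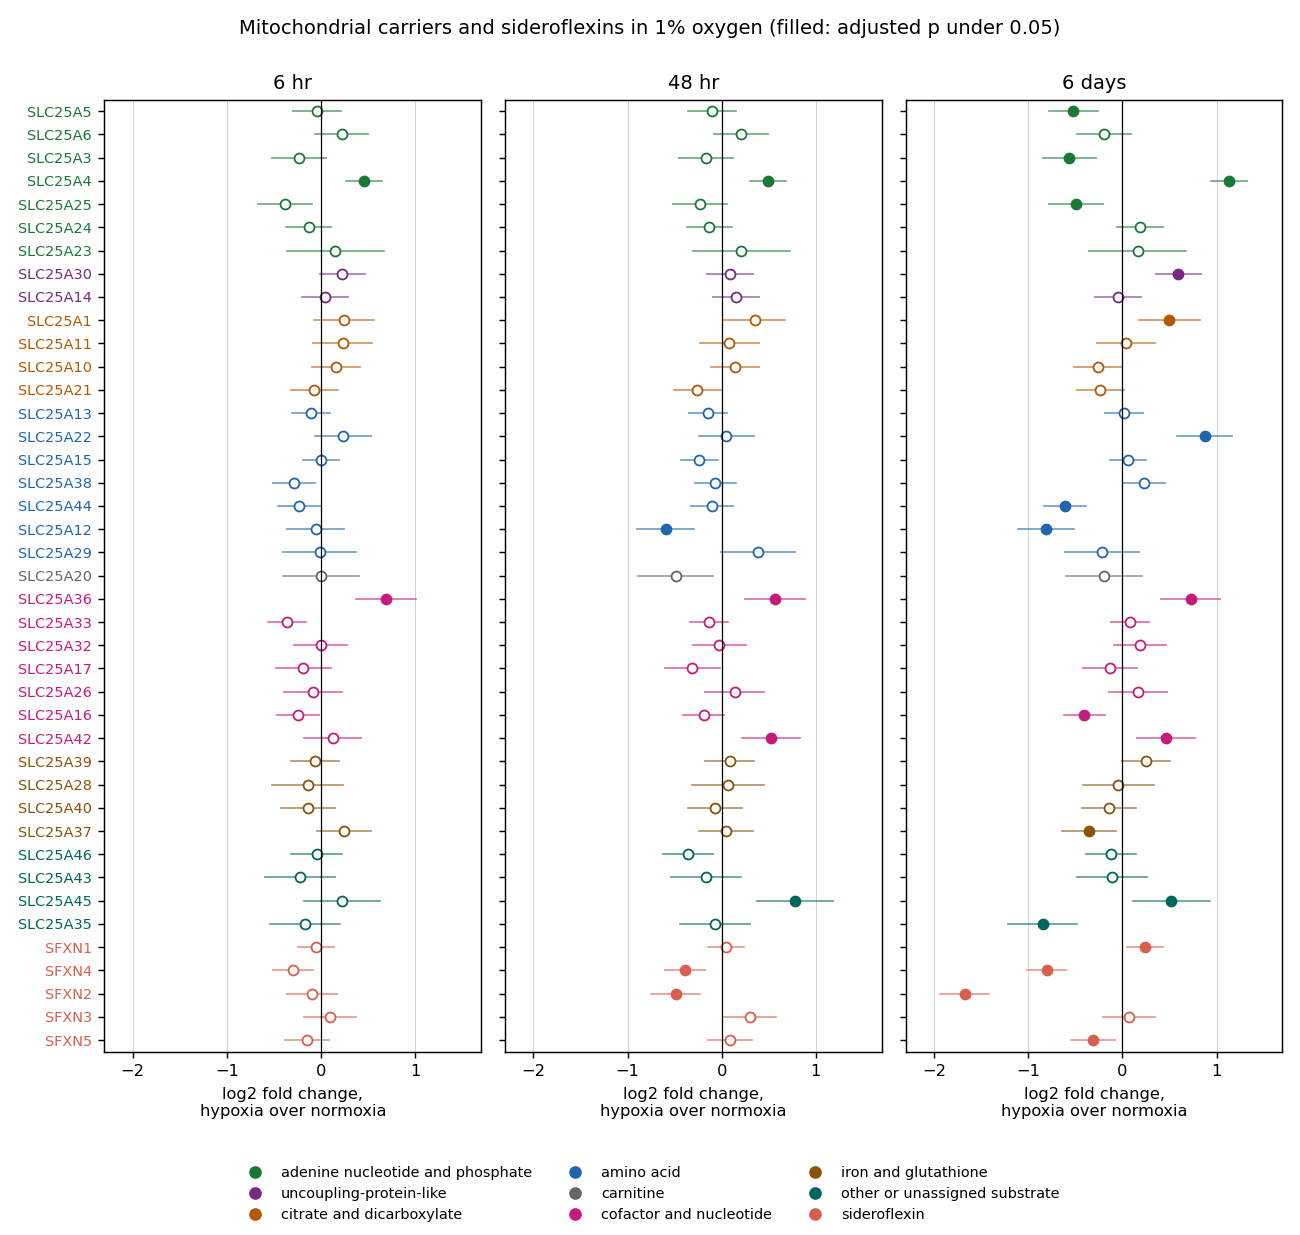
Log2 fold change (hypoxia over normoxia, x axis, on log2(RPKM + 0.5)) of 41 of the 42 genes (y axis, coloured by substrate group) at 6 hr, 48 hr and 6 days, with 95% confidence intervals from limma; filled points passed an adjusted p of 0.05. SLC25A4 and SLC25A36 are filled to the right at all 3 times, and at 6 days SFXN2 lies furthest left at -1.67 and SLC25A4 furthest right at 1.13.

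The ADP/ATP carriers, which exchange matrix ATP for cytosolic ADP, moved apart from each other. SLC25A4, the form known best from heart and skeletal muscle, had the lowest level of the 3 measured here and was the only one of them called higher in hypoxia. At 6 hr SLC25A4 had 8.49 and 7.48 RPKM in the hypoxia libraries and 5.64 and 5.73 RPKM in the normoxia libraries. At 48 hr SLC25A4 had 11.3 and 11.3 RPKM in the hypoxia libraries and 8.22 and 7.67 RPKM in the normoxia libraries. At 6 days SLC25A4 had 10.5 and 9.87 RPKM in the hypoxia libraries and 4.48 and 4.29 RPKM in the normoxia libraries. At each time both hypoxia libraries lay above both normoxia libraries. Its log2 fold change was 0.45 ± 0.09 (SE) at 6 hr (limma adjusted p = 0.0137), 0.49 ± 0.09 (SE) at 48 hr (limma adjusted p = 0.00378) and 1.13 ± 0.09 (SE) at 6 days (limma adjusted p = 3.26e-06), the last a 2.19-fold rise. The 6 hr call did not pass without library 3 (limma adjusted p = 0.144) or in a fit of the 2 groups of that time alone (limma adjusted p = 0.214).

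SLC25A5, the form known from dividing cells, fell at 6 days. It had 52.7 and 59.2 RPKM in the hypoxia libraries and 78.0 and 82.5 RPKM in the normoxia libraries at 6 days, groups that do not overlap, with a log2 fold change of -0.52 ± 0.12 (SE) (limma adjusted p = 0.00468). At the earlier times its groups overlapped, with 83.4 and 87.3 RPKM in the hypoxia libraries and 91.0 and 84.9 RPKM in the normoxia libraries at 6 hr (limma adjusted p = 0.899). At 48 hr SLC25A5 had 86.4 and 81.9 RPKM in the hypoxia libraries and 81.2 and 100.5 RPKM in the normoxia libraries (limma adjusted p = 0.629). SLC25A6, the form found in most tissues, was not called at any time. At 6 hr SLC25A6 had 77.4 and 62.8 RPKM in the hypoxia libraries and 65.3 and 55.0 RPKM in the normoxia libraries. At 48 hr SLC25A6 had 85.3 and 89.3 RPKM in the hypoxia libraries and 73.2 and 77.8 RPKM in the normoxia libraries. At 6 days SLC25A6 had 79.1 and 70.4 RPKM in the hypoxia libraries and 80.3 and 90.8 RPKM in the normoxia libraries, where its log2 fold change was -0.19 (95% interval -0.48 to 0.09, limma adjusted p = 0.255). The groups overlapped at 6 hr, and hypoxia lay above normoxia at 48 hr and below it at 6 days. Under quantile normalization the 6-day difference of SLC25A6 was called as lower (log2 fold change -0.33, limma adjusted p = 0.0117).

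As a share of the summed RPKM of these 3 carriers, SLC25A4 made up 5.02 and 4.75% in hypoxia and 3.48 and 3.94% in normoxia at 6 hr. At 48 hr the share was 6.20 and 6.20% in hypoxia and 5.06 and 4.13% in normoxia. At 6 days it was 7.39 and 7.08% in hypoxia and 2.75 and 2.41% in normoxia. So SLC25A4 stayed a minor part of the ADP/ATP carrier RNA in every library. RefSeq lists 9 pseudogenes and 1 antisense gene for SLC25A5 and 6 pseudogenes for SLC25A6, and how reads shared with such copies were counted, or whether strand was used, is not given in the sources used here, so their levels are uncertain to that extent.

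**Figure D2:**
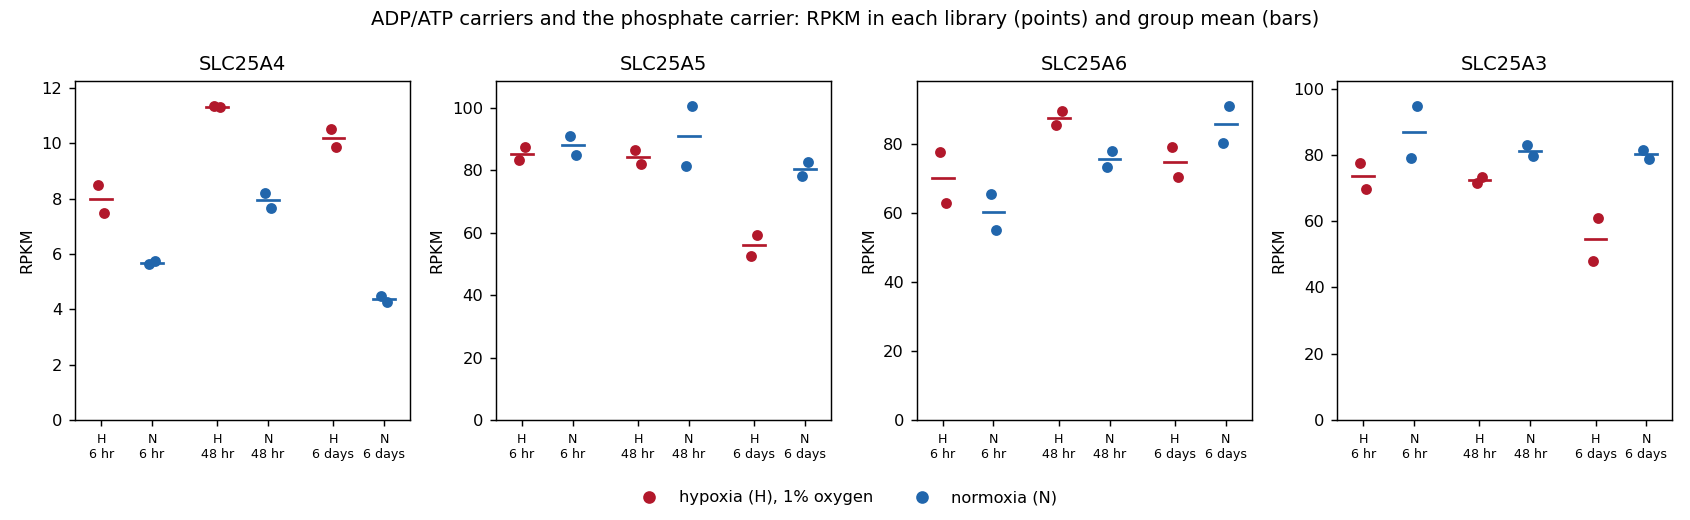
RPKM (y axis, from 0) of the 3 ADP/ATP carriers and the phosphate carrier in each library (points) with group means (bars), hypoxia in red and normoxia in blue, by time (x axis). SLC25A4 is higher in hypoxia at each time, while SLC25A5 and SLC25A3 are lower at 6 days.

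The phosphate carrier SLC25A3, which brings in the phosphate that ATP synthase uses, also fell at 6 days. At 6 hr SLC25A3 had 77.7 and 69.7 RPKM in the hypoxia libraries and 79.1 and 94.7 RPKM in the normoxia libraries. At 48 hr SLC25A3 had 71.7 and 73.2 RPKM in the hypoxia libraries and 82.9 and 79.7 RPKM in the normoxia libraries. At 6 days SLC25A3 had 47.9 and 61.1 RPKM in the hypoxia libraries and 81.6 and 78.8 RPKM in the normoxia libraries. The groups lay apart at each time, and the log2 fold change was -0.23, -0.17 and -0.56 ± 0.13 (SE) (limma adjusted p = 0.00517), called at 6 days only. This call did not pass without library 11, the lower of the hypoxia libraries (log2 fold change -0.39, limma adjusted p = 0.0606). RefSeq lists 3 pseudogenes for SLC25A3. Of the calcium-regulated ATP-Mg/phosphate carriers, SLC25A25 fell at 6 days, with 2.66 and 2.46 RPKM in the hypoxia libraries and 3.83 and 3.76 RPKM in the normoxia libraries. This is a log2 fold change of -0.49 ± 0.13 (SE) (limma adjusted p = 0.0114), a call lost without library 9 or 12 (limma adjusted p = 0.0572 and 0.0684). Its relatives SLC25A23 and SLC25A24 were not called. In the group of 7 adenine nucleotide and phosphate carriers, 1 rose and 3 fell at 6 days, beside 23.9% higher and 18.3% lower of all tested genes.

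Among carriers related to uncoupling proteins, SLC25A30 rose at 6 days, with 4.63 and 4.96 RPKM in the hypoxia libraries and 2.72 and 3.31 RPKM in the normoxia libraries and no overlap. Its log2 fold change was 0.60 ± 0.11 (SE) at 6 days (limma adjusted p = 0.00146), and 0.23 and 0.09 at 6 and 48 hr, both not called. SLC25A14, the other one measured, was not called at any time.

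Of the carriers of TCA cycle acids, the citrate carrier SLC25A1 was called higher in hypoxia at 6 days. The other 3 were not called in hypoxia. SLC25A1 exports citrate for fatty acid and sterol synthesis. Its group means at 6 hr, 48 hr and 6 days were 21.2, 28.1 and 18.9 RPKM in hypoxia. In normoxia they were 17.4, 21.9 and 13.2 RPKM, so both conditions were lower at 6 days than at 48 hr. SLC25A1 had 19.7 and 18.2 RPKM in the hypoxia libraries and 12.7 and 13.8 RPKM in the normoxia libraries at 6 days, with a log2 fold change of 0.50 ± 0.15 (SE) (limma adjusted p = 0.0178). The 6-day call of SLC25A1 did not pass without library 9 or 11 (limma adjusted p = 0.0997 and 0.0964), while without library 4 it was called higher at 6 hr (limma adjusted p = 0.0283), and in a fit of the 2 groups of 48 hr alone at that time (limma adjusted p = 0.0203). The dicarboxylate carrier SLC25A10 had 4.41 and 4.77 RPKM in the hypoxia libraries and 5.63 and 5.51 RPKM in the normoxia libraries at 6 days, groups that do not overlap (limma adjusted p = 0.0956). With quantile normalization, trimmed-mean centring or a fit of these 2 groups alone it was called lower (limma adjusted p = 0.0133, 0.0186 and 0.0452). The oxoglutarate/malate carrier SLC25A11 and the oxodicarboxylate carrier SLC25A21 were not called. Under quantile normalization SLC25A21 was called lower at 48 hr and 6 days (limma adjusted p = 0.0479 and 0.0147), and with trimmed-mean centring at 6 days (limma adjusted p = 0.0288). RefSeq lists 5 pseudogenes for SLC25A1.

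The aspartate/glutamate carriers SLC25A12 and SLC25A13, which feed the malate-aspartate shuttle that moves cytosolic NADH equivalents into the matrix, responded unequally. At 6 hr SLC25A12 had 5.91 and 5.65 RPKM in the hypoxia libraries and 7.11 and 5.13 RPKM in the normoxia libraries. At 48 hr SLC25A12 had 4.59 and 4.30 RPKM in the hypoxia libraries and 6.70 and 7.26 RPKM in the normoxia libraries. At 6 days SLC25A12 had 3.14 and 2.59 RPKM in the hypoxia libraries and 5.13 and 5.66 RPKM in the normoxia libraries. The groups overlapped at 6 hr and lay apart at 48 hr and 6 days. Its log2 fold change was -0.06 at 6 hr, -0.60 ± 0.14 (SE) at 48 hr (limma adjusted p = 0.0154) and -0.81 ± 0.14 (SE) at 6 days (limma adjusted p = 0.000806). The 48 hr call did not pass without any single library of that time, with limma adjusted p of 0.0525, 0.11, 0.0709 and 0.104 without libraries 5, 6, 7 and 8.

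SLC25A13, the more abundant of the pair, was not called in hypoxia at any time and had 10.1 and 10.8 RPKM in the hypoxia libraries and 10.4 and 10.2 RPKM in the normoxia libraries at 6 days (log2 fold change 0.02, 95% interval -0.18 to 0.22). SLC25A12 therefore made up 23.7 and 19.4% of their summed RPKM in hypoxia at 6 days, against 33.1 and 35.7% in normoxia. At 6 hr the share was 25.1 and 27.3% in hypoxia and 29.0 and 22.4% in normoxia, which overlap.

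SLC25A22, a carrier that brings glutamate into the matrix with a proton, was higher in hypoxia at 6 days after lying close to normoxia before. At 6 hr SLC25A22 had 19.2 and 16.3 RPKM in the hypoxia libraries and 16.9 and 13.3 RPKM in the normoxia libraries. At 48 hr SLC25A22 had 18.1 and 18.1 RPKM in the hypoxia libraries and 17.7 and 17.2 RPKM in the normoxia libraries. At 6 days SLC25A22 had 9.97 and 8.66 RPKM in the hypoxia libraries and 4.35 and 5.37 RPKM in the normoxia libraries. Levels were thus lower at 6 days than earlier in both oxygen conditions, and lowest in normoxia. The log2 fold change was 0.23, 0.05 and 0.88 ± 0.13 (SE) (limma adjusted p = 0.000437), called at 6 days only. Of the other amino acid carriers, SLC25A44, which takes up branched-chain amino acids, fell at 6 days, with 3.89 and 3.80 RPKM in the hypoxia libraries and 5.58 and 6.75 RPKM in the normoxia libraries. Its log2 fold change was -0.61 ± 0.10 (SE) (limma adjusted p = 0.000717). The ornithine carrier SLC25A15, the glycine carrier SLC25A38 and the basic amino acid carrier SLC25A29 were not called in hypoxia, although without library 10 SLC25A38 was called higher at 6 days (limma adjusted p = 0.0395). SLC25A15 was called lower at 48 hr with quantile normalization or trimmed-mean centring (limma adjusted p = 0.0363 and 0.0244).

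The carnitine/acylcarnitine carrier SLC25A20, which lets long-chain fatty acids into the matrix for oxidation, was not called. At 48 hr SLC25A20 had 3.16 and 2.96 RPKM in the hypoxia libraries and 4.42 and 4.59 RPKM in the normoxia libraries, groups that do not overlap (limma adjusted p = 0.11). At 6 days SLC25A20 had 2.74 and 1.93 RPKM in the hypoxia libraries and 2.13 and 3.44 RPKM in the normoxia libraries, groups that do. In a fit of the 2 groups of 48 hr alone it was called as lower (limma adjusted p = 0.0142).

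Among carriers of cofactors and nucleotides, SLC25A36 rose at every time. This carrier exchanges pyrimidine nucleotides between cytosol and matrix. At 6 hr SLC25A36 had 19.4 and 22.1 RPKM in the hypoxia libraries and 14.9 and 10.8 RPKM in the normoxia libraries. At 48 hr SLC25A36 had 21.5 and 18.0 RPKM in the hypoxia libraries and 12.6 and 13.7 RPKM in the normoxia libraries. At 6 days SLC25A36 had 38.8 and 34.7 RPKM in the hypoxia libraries and 22.1 and 21.8 RPKM in the normoxia libraries. No normoxia library reached the lower hypoxia library of its time, and both groups were highest at 6 days. The log2 fold change was 0.69 ± 0.14 (SE) at 6 hr (limma adjusted p = 0.0221), 0.57 ± 0.14 (SE) at 48 hr (limma adjusted p = 0.0256) and 0.73 ± 0.14 (SE) at 6 days (limma adjusted p = 0.00216). The 6-day call passed in every alternative run, while the 6 hr call was lost without library 2, 3 or 4 (limma adjusted p = 0.0849, 0.0713 and 0.119). The 48 hr call was lost without library 5, 6 or 7 (limma adjusted p = 0.143, 0.0815 and 0.21). Without the filter on low values the 6 hr and 48 hr calls of SLC25A36 were lost as well (limma adjusted p = 0.0811 and 0.0695). The 6 hr call was also lost in a fit of the 2 groups of that time alone (limma adjusted p = 0.0601). SLC25A33, a close relative of SLC25A36 and also a pyrimidine nucleotide carrier, was not called in hypoxia (log2 fold change -0.36, -0.14 and 0.08). At 6 hr it was called lower with quantile normalization or trimmed-mean centring, or without library 2 (limma adjusted p = 0.0168, 0.015 and 0.0387).

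SLC25A42 and SLC25A16, both linked to coenzyme A uptake, had log2 fold changes of opposite sign at 6 days. SLC25A42 had 0.796 and 0.876 RPKM in the hypoxia libraries and 0.368 and 0.490 RPKM in the normoxia libraries at 48 hr. At 6 days SLC25A42 had 1.35 and 1.58 RPKM in the hypoxia libraries and 0.760 and 1.11 RPKM in the normoxia libraries. The log2 fold changes were 0.53 ± 0.14 (SE) at 48 hr (limma adjusted p = 0.0313) and 0.46 ± 0.14 (SE) at 6 days. It reached 1 RPKM only in 3 libraries of 6 days, 2 of them hypoxia, so the 6-day difference is a description. At such low levels the scale understates the fold. Its 48 hr call was lost under quantile normalization (limma adjusted p = 0.237) and without library 5, 6, 7 or 8 (limma adjusted p = 0.187, 0.0687, 0.114 and 0.162). SLC25A16 had 2.88 and 2.87 RPKM in the hypoxia libraries and 3.63 and 4.32 RPKM in the normoxia libraries at 6 days. Its log2 fold change was -0.40 ± 0.10 (SE) (limma adjusted p = 0.00787; without library 10 limma adjusted p = 0.084). The folate carrier SLC25A32, the S-adenosylmethionine carrier SLC25A26 and the peroxisomal coenzyme A carrier SLC25A17 were not called, although SLC25A17 was called lower at 48 hr in a fit of the 2 groups of that time alone (limma adjusted p = 0.0261).

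The mitoferrins SLC25A37 and SLC25A28, which import iron for haem and iron-sulphur cluster synthesis, were called in hypoxia at 1 time between them. At 6 hr SLC25A37 had 5.21 and 5.12 RPKM in the hypoxia libraries and 3.83 and 4.80 RPKM in the normoxia libraries. At 48 hr SLC25A37 had 4.86 and 5.51 RPKM in the hypoxia libraries and 4.54 and 5.48 RPKM in the normoxia libraries. At 6 days SLC25A37 had 4.66 and 5.37 RPKM in the hypoxia libraries and 6.07 and 7.05 RPKM in the normoxia libraries. The groups overlapped at 48 hr and lay apart at the other times. Group means at 6 hr, 48 hr and 6 days were 5.16, 5.19 and 5.02 RPKM in hypoxia. In normoxia they were 4.32, 5.01 and 6.56 RPKM, and SLC25A37 was called higher at 6 days than at 6 hr there. The lower level in hypoxia than in normoxia at 6 days barely passed (log2 fold change -0.36 ± 0.13 (SE), limma adjusted p = 0.0465). It did not pass without library 9, 10, 11 or 12 (limma adjusted p = 0.0554, 0.257, 0.245 and 0.0573), without the filter on low values (limma adjusted p = 0.0864) or without the intensity trend (limma adjusted p = 0.0534). SLC25A28 had 5.92 and 5.23 RPKM in the hypoxia libraries and 5.74 and 5.76 RPKM in the normoxia libraries at 6 days (log2 fold change -0.04, 95% interval -0.42 to 0.34) and was not called at any time. The glutathione carriers SLC25A39 and SLC25A40 were not called in hypoxia either.

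Among carriers without a settled substrate, SLC25A45 rose at 48 hr, at a level under 1 RPKM. SLC25A45 had 0.816 and 0.530 RPKM in the hypoxia libraries and 0.215 and 0.144 RPKM in the normoxia libraries at 48 hr. At 6 days SLC25A45 had 1.16 and 1.52 RPKM in the hypoxia libraries and 0.810 and 0.740 RPKM in the normoxia libraries. Its log2 fold change was 0.78 ± 0.18 (SE) at 48 hr (limma adjusted p = 0.0185) and 0.52 ± 0.18 (SE) at 6 days. Its 48 hr call was lost without library 5, 6 or 7 (limma adjusted p = 0.0582, 0.123 and 0.17) and under quantile normalization (limma adjusted p = 0.147). SLC25A35 had 0.249 and 0.4996 RPKM in the hypoxia libraries and 1.01 and 1.10 RPKM in the normoxia libraries at 6 days, with a log2 fold change of -0.85 ± 0.17 (SE). SLC25A45 reached 1 RPKM only in hypoxia at 6 days and SLC25A35 only in normoxia at 6 days, so the filter let each in through 1 side of that comparison, and their 6-day differences are descriptions. For SLC25A35, 1 of the 6-day hypoxia libraries lay within and 1 below the range of the earlier times, 0.315 to 0.632 RPKM, while both normoxia libraries lay above it. SLC25A43 and SLC25A46, a protein of the outer membrane linked to mitochondrial fission and fusion, were not called in hypoxia. SLC25A46 was called lower at 48 hr with quantile normalization or trimmed-mean centring, or without library 5 (limma adjusted p = 0.0355, 0.0338 and 0.0383).

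Of the 5 sideroflexins, 3 fell and 1 rose at 6 days, beside 18.3% lower and 23.9% higher of all tested genes, and the calls of SFXN1 and SFXN5 were lost in several alternatives. SFXN2, which has been linked to mitochondrial iron and haem handling, had the largest change of all 42 genes. At 6 hr SFXN2 had 2.39 and 2.14 RPKM in the hypoxia libraries and 2.67 and 2.26 RPKM in the normoxia libraries. At 48 hr SFXN2 had 1.51 and 1.89 RPKM in the hypoxia libraries and 2.41 and 2.75 RPKM in the normoxia libraries. At 6 days SFXN2 had 0.412 and 0.372 RPKM in the hypoxia libraries and 2.40 and 2.30 RPKM in the normoxia libraries. The groups overlapped at 6 hr, lay apart at 48 hr, and at 6 days hypoxia was far below every other library. The log2 fold change was -0.10 at 6 hr, -0.49 ± 0.12 (SE) at 48 hr (limma adjusted p = 0.0219) and -1.67 ± 0.12 (SE) at 6 days (limma adjusted p = 1.91e-06). The last is 3.19-fold lower on the log2(RPKM + 0.5) scale, and the group means of RPKM themselves, 0.392 in hypoxia and 2.35 in normoxia, differ 5.99-fold. The 48 hr call was lost without library 6 or 7 (limma adjusted p = 0.163 and 0.199) and without the filter on low values (limma adjusted p = 0.0598).

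SFXN4, the complex I assembly factor, was lower in hypoxia in each pair of groups. At 6 hr SFXN4 had 4.51 and 4.96 RPKM in the hypoxia libraries and 5.86 and 6.01 RPKM in the normoxia libraries. At 48 hr SFXN4 had 4.50 and 4.86 RPKM in the hypoxia libraries and 6.06 and 6.53 RPKM in the normoxia libraries. At 6 days SFXN4 had 2.13 and 2.15 RPKM in the hypoxia libraries and 3.81 and 4.43 RPKM in the normoxia libraries. Both hypoxia libraries lay below both normoxia libraries at each time. The log2 fold change was -0.30 ± 0.10 (SE) at 6 hr (limma adjusted p = 0.128), -0.39 ± 0.10 (SE) at 48 hr (limma adjusted p = 0.0211) and -0.80 ± 0.10 (SE) at 6 days (limma adjusted p = 8.04e-05). The 48 hr call was lost without library 5, 6, 7 or 8 (limma adjusted p = 0.06, 0.149, 0.172 and 0.0653), and the 6-day call passed in every alternative run. RefSeq lists 1 pseudogene for SFXN4.

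SFXN1, the serine carrier and the most abundant sideroflexin, was a little higher in hypoxia than in normoxia at 6 days. At 6 hr SFXN1 had 31.7 and 35.2 RPKM in the hypoxia libraries and 35.6 and 33.9 RPKM in the normoxia libraries. At 48 hr SFXN1 had 36.8 and 35.5 RPKM in the hypoxia libraries and 33.6 and 36.3 RPKM in the normoxia libraries. At 6 days SFXN1 had 26.5 and 26.6 RPKM in the hypoxia libraries and 21.9 and 23.0 RPKM in the normoxia libraries. The groups overlapped at 6 hr and 48 hr and lay apart at 6 days, where both were lower than before. The log2 fold change at 6 days was 0.24 ± 0.09 (SE) (limma adjusted p = 0.048). The call did not pass without library 9, 10, 11 or 12 (log2 fold change 0.21, 0.27, 0.24 and 0.24) or under either scaling (limma adjusted p = 0.122 and 0.0993). Nor did it pass at a minimum of 5 RPKM or without the intensity trend (limma adjusted p = 0.0506 and 0.0537).

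At 6 hr SFXN5 had 1.49 and 1.30 RPKM in the hypoxia libraries and 1.56 and 1.65 RPKM in the normoxia libraries. At 48 hr SFXN5 had 1.69 and 1.67 RPKM in the hypoxia libraries and 1.58 and 1.53 RPKM in the normoxia libraries. At 6 days SFXN5 had 0.670 and 0.547 RPKM in the hypoxia libraries and 0.826 and 0.926 RPKM in the normoxia libraries. Hypoxia lay below normoxia at 6 hr and 6 days and above it at 48 hr, and only the fall at 6 days was called (log2 fold change -0.31 ± 0.11 (SE), limma adjusted p = 0.0346). That call did not pass in a fit of the 2 groups of 6 days alone (limma adjusted p = 0.109). Nor did it pass without library 9, 10 or 12 (log2 fold change -0.37, -0.26 and -0.23). Every value of SFXN5 at 6 days was under 1 RPKM. SFXN3, also reported as a serine carrier, was not called at any time. At 6 hr SFXN3 had 1.27 and 1.38 RPKM in the hypoxia libraries and 1.37 and 1.05 RPKM in the normoxia libraries. At 48 hr SFXN3 had 1.83 and 1.82 RPKM in the hypoxia libraries and 1.41 and 1.37 RPKM in the normoxia libraries. At 6 days SFXN3 had 1.79 and 1.57 RPKM in the hypoxia libraries and 1.39 and 1.78 RPKM in the normoxia libraries. Only at 48 hr did its groups lie apart (log2 fold change 0.30, limma adjusted p = 0.158).

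**Figure D3:**
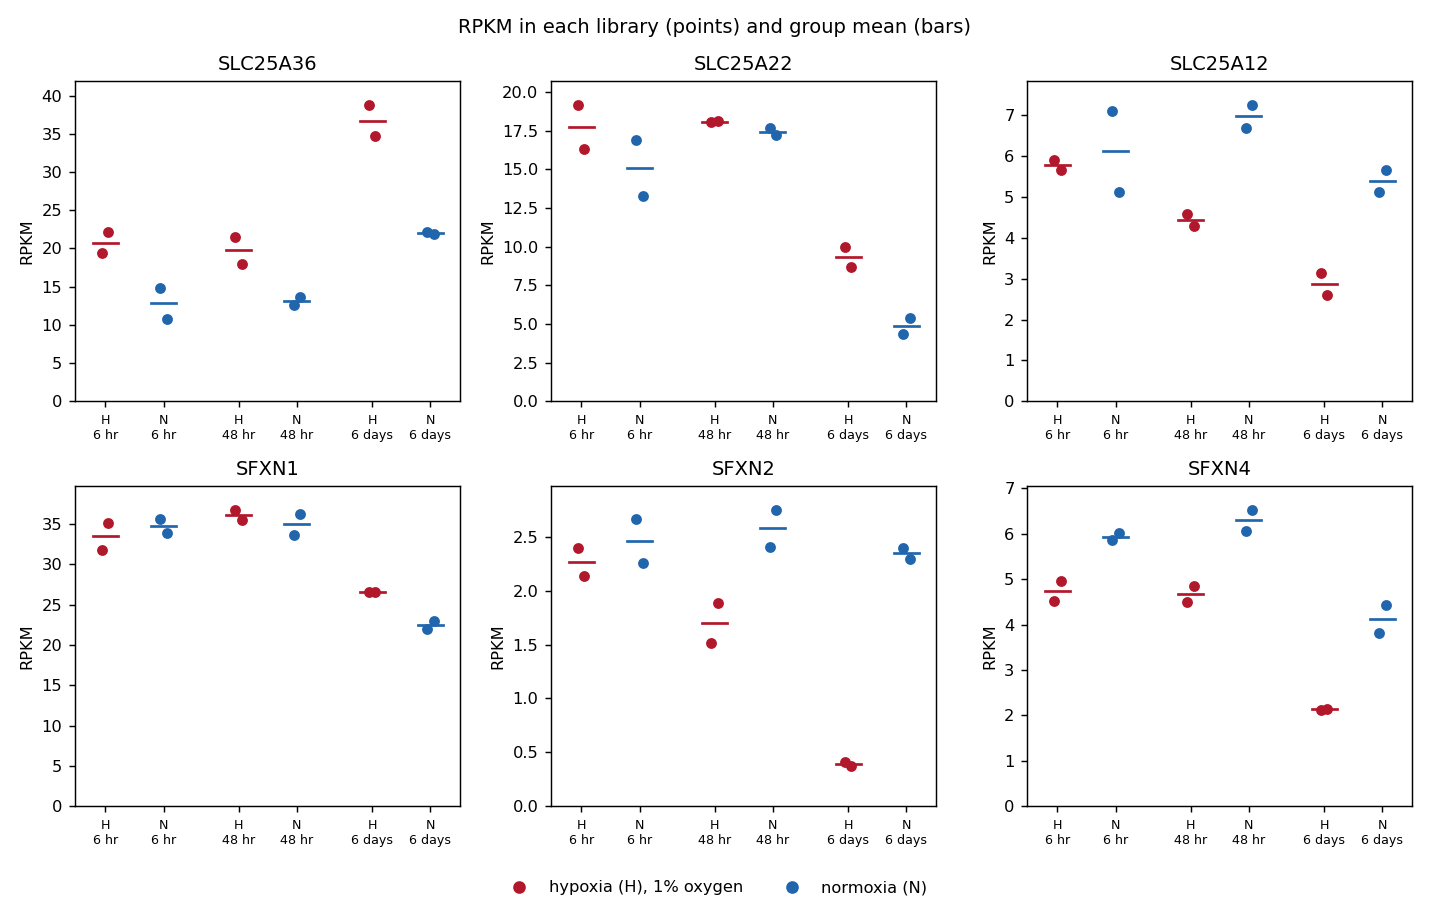
RPKM (y axis, from 0) of SLC25A36, SLC25A22, SLC25A12, SFXN1, SFXN2 and SFXN4 in each library (points) with group means (bars), hypoxia in red and normoxia in blue, by time (x axis). SLC25A36 is higher in hypoxia at all 3 times, and SFXN2 in hypoxia at 6 days, at 0.412 and 0.372 RPKM, is below all 10 other libraries.

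The size of the oxygen effect differed between 48 hr and 6 days for 4 of the 42 genes (2 higher and 2 lower at the later time), where 10.7% of all genes were called (5.38% higher and 5.31% lower), and between 6 hr and 48 hr for 0 of 42 by limma, where 0.528% of all genes were called. At an unadjusted p under 0.05 the earlier contrast held 2 of the 42 (4.76%) and 10.8% of all tested genes. From 48 hr to 6 days the log2 fold change of SFXN2 changed by -1.19 ± 0.17 (SE) (limma adjusted p = 0.00318), that of SLC25A22 by 0.83 ± 0.19 (SE) (limma adjusted p = 0.0214). That of SLC25A4 changed by 0.64 ± 0.12 (SE) (limma adjusted p = 0.0108) and that of SLC25A44 by -0.51 ± 0.14 (SE) (limma adjusted p = 0.0439). Of these, SFXN2 passed in every alternative run. SLC25A4 did not pass without library 8 (limma adjusted p = 0.0512). SLC25A22 did not pass without library 5, 6, 7, 8, 9 or 11 (limma adjusted p = 0.0576 to 0.076), and SLC25A44 without library 5, 6, 7, 8, 10, 11 or 12 (limma adjusted p = 0.0916 to 0.156). Without library 8, SFXN2 was the one call left. SLC25A44 also did not pass without the filter on low values or without the intensity trend (limma adjusted p = 0.0652 and 0.0523). Quantile normalization called 10, of which 3 were higher and 7 lower, and its share of all tested genes was 20.8%. The contrast between 6 days and 48 hr of SLC25A36 was not called (0.16, limma adjusted p = 0.643), nor was that of SLC25A12 (-0.22, 95% interval -0.64 to 0.21).

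Time in culture changed these genes at normal oxygen too. In normoxia at 6 days against normoxia at 6 hr, 9 of 42 were higher and 17 lower, where 56.7% of all genes were called (30.9% higher and 25.9% lower), and the median log2 fold change was -0.12, beside 0.04 over all tested genes. The 9 include SLC25A35, SLC25A42 and SLC25A45, which passed the filter only through 6-day libraries, SLC25A35 only through those of normoxia. The count of higher genes is therefore a description. In normoxia at 48 hr against normoxia at 6 hr 0 of 42 were called by limma, where 0.0922% of all genes were called, and at an unadjusted p under 0.05 it held 3 of the 42 (7.14%) and 16.4% of all tested genes. Without library 1, SLC25A4 and SLC25A11 were called higher (log2 fold change 0.44 and 0.45, limma adjusted p = 0.0321 and 0.0488). In the same fit 9.77% of all tested genes were called higher, against 0.00838% with every library in. These comparisons share normoxia libraries with the oxygen comparisons, so the values are set side by side and no overlap is read from them.

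The lowest fold changes with time were those of SLC25A22 and SLC25A10. SLC25A22 had 4.35 and 5.37 RPKM at 6 days and 16.9 and 13.3 RPKM at 6 hr (log2 fold change -1.54 ± 0.13 (SE), limma adjusted p = 4.60e-06). SLC25A10, which exchanges malate or succinate for phosphate, had 5.63 and 5.51 RPKM at 6 days and 15.4 and 12.9 RPKM at 6 hr (log2 fold change -1.26 ± 0.12 (SE), limma adjusted p = 6.32e-06). Both pairs of groups lie well apart, and these calls passed in every alternative run.

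The highest fold changes with time were those of SLC25A29, SLC25A36 and SLC25A42. SLC25A29, a carrier of arginine, lysine and other basic amino acids, had 3.86 and 4.50 RPKM at 6 days and 1.93 and 2.24 RPKM at 6 hr (log2 fold change 0.86 ± 0.18 (SE), limma adjusted p = 0.00173). SLC25A36 had 22.1 and 21.8 RPKM at 6 days and 14.9 and 10.8 RPKM at 6 hr (log2 fold change 0.77 ± 0.14 (SE), limma adjusted p = 0.000833), so it was higher both with low oxygen and with time. SLC25A42 had 0.760 and 1.11 RPKM at 6 days and 0.382 and 0.415 RPKM at 6 hr (log2 fold change 0.66 ± 0.14 (SE)), a description, since it passed the filter only through libraries of 6 days.

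Among the ADP/ATP and phosphate carriers, SLC25A4 was lower at 6 days than at 6 hr in normoxia (log2 fold change -0.34 ± 0.09 (SE), limma adjusted p = 0.00603), which was not called in a fit of these 2 groups alone (limma adjusted p = 0.0549). SLC25A6 was higher (log2 fold change 0.51 ± 0.13 (SE), limma adjusted p = 0.0061; without library 10 limma adjusted p = 0.0575), and SLC25A3 and SLC25A5 were not called (-0.11 and -0.13). SFXN1, SFXN4 and SFXN5 were lower (-0.62, -0.48 and -0.61; limma adjusted p = 0.00013, 0.00126 and 0.000544), while SFXN2 was not called (-0.05, 95% interval -0.32 to 0.21). Some calls with time were gained or lost without library 1, 2, 9 or 10. They touched SFXN3, SLC25A1, SLC25A6, SLC25A11, SLC25A12, SLC25A20, SLC25A35, SLC25A38, SLC25A39, SLC25A40, SLC25A44 and SLC25A45.

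**Figure D4:**
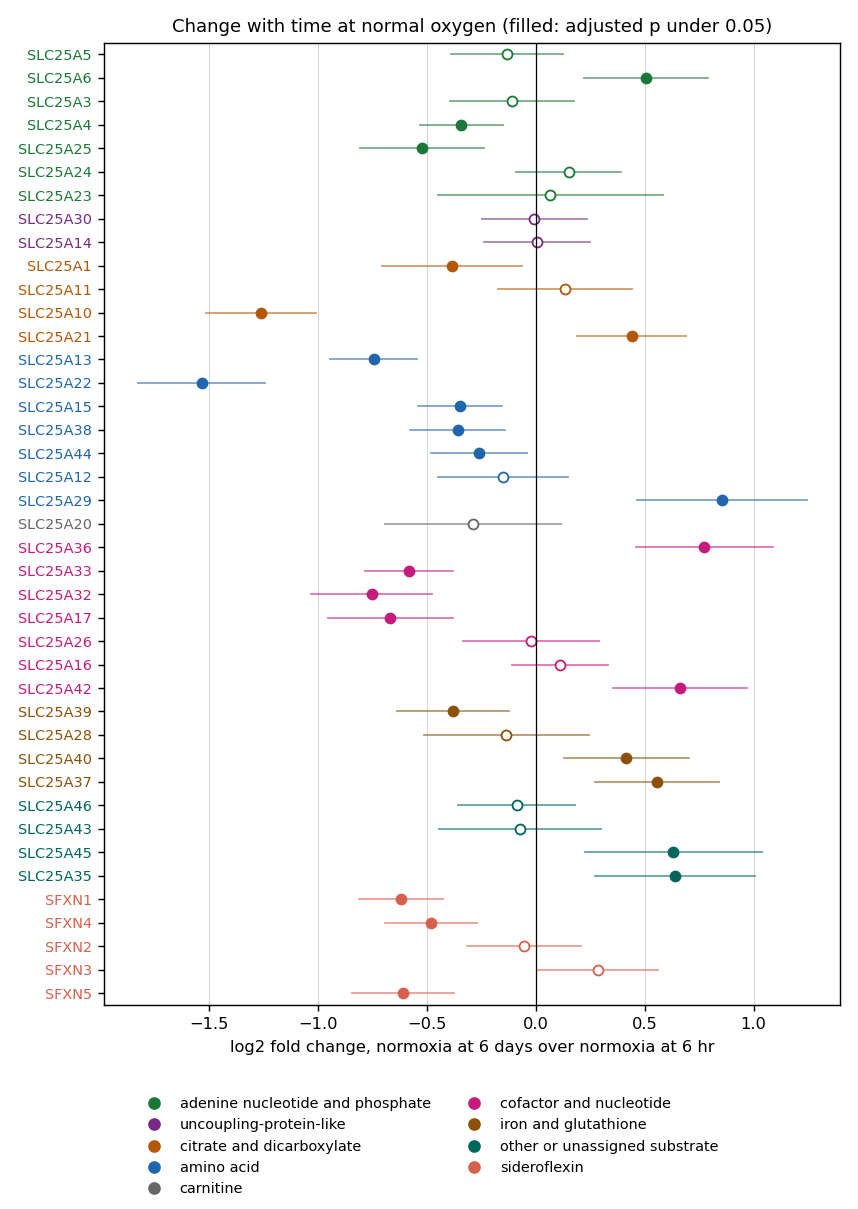
Log2 fold change (normoxia at 6 days over normoxia at 6 hr, x axis, on log2(RPKM + 0.5)) of 41 of the 42 genes (y axis, coloured by substrate group) with 95% confidence intervals from limma; filled points passed an adjusted p of 0.05. Filled points left of 0 include SLC25A22 at -1.54, and the 9 filled points to the right include SLC25A29 at 0.86. They also include SLC25A35, SLC25A42 and SLC25A45, which passed the filter only through 6-day libraries.

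Genes that work with these carriers were counted from lists. Of 4 tested carriers of the same family with other symbols, 3 rose at 6 days. These were MTCH1 (log2 fold change 0.85 ± 0.10 (SE), limma adjusted p = 7.26e-05) and MTCH2 (log2 fold change 0.46 ± 0.09 (SE), limma adjusted p = 0.00193), outer membrane proteins of the carrier family, and UCP2, an uncoupling protein (log2 fold change 0.42 ± 0.09 (SE), limma adjusted p = 0.00379). The fourth, listed as MCART1, was not called at 6 days (-0.08) and was lower at 48 hr (log2 fold change -0.43 ± 0.11 (SE), limma adjusted p = 0.0259). Of 15 genes of the route that brings carriers into the inner membrane, 0 were called at 6 hr, 1 fell at 48 hr, and 1 rose and 5 fell at 6 days, with a median log2 fold change of -0.18 at 6 days. TIMM13, a small chaperone of the intermembrane space, had the lowest value (log2 fold change -0.71 ± 0.13 (SE), limma adjusted p = 0.00114). Of 17 other mitochondrial channels and transporters, 4 rose and 3 fell at 6 days with a median of -0.04. Among them were the outer membrane channel VDAC1 (log2 fold change 0.93 ± 0.11 (SE), limma adjusted p = 8.04e-05) and ABCB8 (log2 fold change -0.81 ± 0.10 (SE), limma adjusted p = 9.26e-05). Of 128 genes of other SLC families, 34 rose and 26 fell at 6 days with a median of 0.02. These counts are read beside the 23.9% higher and 18.3% lower of all tested genes, and no difference between lists was tested.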

How the data were processed

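RPKM per gene symbol, 1 column for each of 12 total RNA libraries, was used as deposited by the authors. Partek 6.6 and the build hg19 are named, with no role, in the submitters' processing notes. For the aligner, transcript models, strand use and reads with several matches, the sources used here say nothing. These values hold no counts, and a count test was therefore left out. Read totals were inferred from precursor miRNA RPKM, over 700 of 939 precursors with a known length. Each total was picked so that values of up to 20 reads lay close to whole numbers. With the totals picked, 93.98 to 98.6% of such values lay within 0.05 reads of a whole number. That share guided the choice and is no check of it. These totals limit precision for low genes, and they cover counting error only.

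Genes with RPKM of at least 1 in at least 2 of 12 libraries were tested, 11933 in all, with limma 3.58.1 (R 4.3.3), after taking log2(RPKM + 0.5). The fit had 6 group means, an intensity trend, 6 residual and 5.08 prior degrees of freedom, two-sided tests, and Benjamini-Hochberg adjustment over all tested genes within each comparison at 0.05. The scale understates the fold of low genes. The code of the fit was also run on simulated data with known changes in a single group. That run is not used as support for the results here. Alternatives were pseudocounts of 0.1 and 1, no filter, a minimum of 5 RPKM, quantile normalization, centring on a mean trimmed by 30% at each end, no trend, only the groups compared, and each library left out.

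The genes and lists were chosen with earlier results of these data known. Values per library were given for the 4 highest and 4 lowest called changes at each time, up to 3 in each contrast between times, the 3 highest and 3 lowest with time in normoxia, SLC25A3 to SLC25A6, both mitoferrins, all sideroflexins, and the most abundant gene of a substrate group otherwise unnamed. Of the 42 genes, 1 enters the counts and is otherwise not reported here. SLC25A1, SLC25A16, SLC25A25 and SLC25A44 were added after their values were seen, as were genes named for a call gained or lost under an alternative. Promoters came from RefSeq on GRCh38.p14, matched by symbol; gene coordinates on hg19 were not used. Plots used matplotlib 3.10.9 (Python 3.11.15).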

Additional observations from a re-analysis of the deposited data

Results flagged for a closer look

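For 4 genes the oxygen effect at 6 days differed from that at 48 hr by a test of the difference itself in limma. SFXN2 had a difference of -1.19 between the log2 fold changes of 6 days (-1.67) and 48 hr (-0.49), with 0.412 and 0.372 RPKM in hypoxia and 2.40 and 2.30 RPKM in normoxia at 6 days. SLC25A22 had a difference of 0.83 (log2 fold changes 0.88 and 0.05), with 9.97 and 8.66 RPKM in hypoxia and 4.35 and 5.37 RPKM in normoxia at 6 days. SLC25A4 had a difference of 0.64 (log2 fold changes 1.13 and 0.49), and SLC25A44 a difference of -0.51 (log2 fold changes -0.61 and -0.10). Of these 4 differences, only that of SFXN2 passed in every alternative run. Of the fibroblast markers, DCN and LUM were higher in both hypoxia libraries than in both normoxia libraries at these times, while THY1 was not, and their part in the differences was not tested.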

How the results depend on the processing

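No called change of any of the 42 genes reversed its direction in 703 comparisons of a call with an alternative. In part of these no reversal was possible. The runs without the filter, at a minimum of 5 RPKM, without the trend and with only the groups compared leave each log2 fold change as it was. Of the 703, 593 kept their side of the threshold and 110 did not. Calls that passed in every alternative run were 0 of 2 at 6 hr, 1 of 7 at 48 hr (SLC25A4), 10 of 20 at 6 days (SFXN2, SFXN4, SLC25A4, SLC25A5, SLC25A12, SLC25A22, SLC25A30, SLC25A36, SLC25A44 and SLC25A35, which reached the minimum only through normoxia at 6 days), 1 of 4 for the contrast of 6 days with 48 hr, and 15 of 26 for time in normoxia. At 6 hr, with 2 calls, there was 1 without the filter, 0 with only the groups compared, and 0 to 2 when a library was left out. At 48 hr, with 7 calls, there were 4 without the filter, 4 at a minimum of 5 RPKM, which tests 28 of the 42 genes, and 1 to 4 when a library was left out. At 6 days, with 20 calls, there were 12 at a minimum of 5 RPKM and 13 to 16 when a library was left out. The contrast of 6 days with 48 hr, with 4 calls, gave 10 under quantile normalization and 1 to 4 when a library was left out. The calls over all tested genes moved as well. At 6 hr 3.59% of all genes were called, 1.36% without the filter, 2.33% with only the groups compared and 1.52 to 7.01% when a library was left out. At 48 hr these were 12.1%, 5.39% without the filter, 12.6% at 5 RPKM and 5.19 to 6.8% when a library was left out. At 6 days they were 42.2%, 44.5% at 5 RPKM and 28.7 to 30.3% when a library was left out, and for the contrast of 6 days with 48 hr 10.7%, 20.8% under quantile normalization and 3.06 to 5.28% when a library was left out. Normoxia at 48 hr against 6 hr, with 0 calls, gave 0 to 2 (0.0503 to 11% of all genes), and normoxia at 6 days against 6 hr, with 26, gave 21 to 25 (45.9 to 55.2% of all genes). Leaving out a library leaves 1 in its group, which is assumed to vary like the others; the cause of the other shifts was not tested. Scaling moved the median of all genes by less than 0.1 on the log2 scale. No paired analysis was possible because the library numbers are not shared between groups. With 25.15 to 51.85 M inferred reads, values near or under 1 RPKM rest on few reads. These are SLC25A35, SLC25A42, SLC25A45, SFXN2 in hypoxia at 6 days and SFXN5 in both groups of 6 days. The depth of each gene value is unknown.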
